A study of Mus musculus with 6 samples.

Results

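The genes described here are 42 genes of DNA replication and of entry into S phase, measured by RNA sequencing in primary cardiomyocytes from neonatal mouse hearts. They are the rows of the deposited count files whose symbol is on a list of replication licensing, fork, nucleotide supply and E2F-linked genes and that had at least 10 counts summed over the 6 libraries. All 42 listed symbols met that rule, out of 32245 symbols in the files. The 6 libraries form 3 groups of 2. Wild-type cells received bone morphogenetic protein 2 together with dorsomorphin (BMP2+DM), BMP2 alone, or phosphate-buffered saline (PBS). Dorsomorphin inhibits the type I receptors that pass BMP signals on to the SMAD proteins, and it is also known to inhibit AMP-activated protein kinase. No group had dorsomorphin alone, so its effect is seen only on top of BMP2. Dose, duration and the origin of the 2 replicates (cultures, litters or animals) are not stated in the labels, so p-values measure only the spread between these samples.

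Before each S phase, the origin recognition complex with CDC6 and CDT1 loads the MCM helicase onto replication origins. CDC45 and the GINS complex then turn the helicase on, and polymerases, the sliding clamp PCNA and the single-strand binding protein RPA copy the strands from deoxynucleotides that ribonucleotide reductase, thymidylate synthase and thymidine kinase supply. Cyclin E with its kinase starts the process, and E2F transcription factors, held back by RB proteins until cyclin-dependent kinases release them, drive many of these genes together. Mouse cardiomyocytes leave the cell cycle soon after birth, which is why replication genes are followed in neonatal cultures.

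Because E2F sites are the shared regulatory feature for which these genes are known, the windows around their transcription starts were searched for the 8-letter forms TTTGGCGC, TTTCGCGC, TTTCCCGC and TTTGCCGC on both strands. The windows were RefSeq sequences of the mouse build GRCm38.p6, from 250 bases before to 50 bases after the start. They were matched by symbol for 34 of the 42 genes, with none for Mcm4, Gins1, Gins2, Gins4, Prim2, Pole, Rfc2 and Ccne2. Some genes have more than 1 window, and the 34 genes have 39. At least 1 of these forms stood in a window of 13 of the 34 genes (38.2%), compared with 491 of 10732 tested genes with a window (4.6%). Counted by window, it was 13 of 39 (33.3%), compared with 744 of 32851 windows in all (2.3%). Among the MCM helicase and licensing genes, 7 of the 9 with a window held one (77.8%). The CCAAT box, searched as CCAAT on both strands, stood in a window of 61.8% of these 34 genes and of 42.7% of tested genes. The SMAD-type GC-rich form GGCGCC was found for 20.6% of the 34 genes and 24.2% of tested genes, and the GC box form GGGCGG for 76.5% and 67.8%. A match is a description of the letters and not evidence of binding, and no match says only that these letters are not in the window.

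Windows of 4 genes are shown to set a helicase gene with several E2F forms beside 3 genes whose levels differed between groups. Each is written 5′ to 3′ on the gene's own strand. Capitals mark the E2F forms and the CCAAT box, on either strand. The Mcm6 window (chr1:128359656-128359955, minus strand) held 3 E2F forms, 2 of which overlap in the run TTTGGCGCGAAA, and 2 CCAAT boxes.
Mcm6: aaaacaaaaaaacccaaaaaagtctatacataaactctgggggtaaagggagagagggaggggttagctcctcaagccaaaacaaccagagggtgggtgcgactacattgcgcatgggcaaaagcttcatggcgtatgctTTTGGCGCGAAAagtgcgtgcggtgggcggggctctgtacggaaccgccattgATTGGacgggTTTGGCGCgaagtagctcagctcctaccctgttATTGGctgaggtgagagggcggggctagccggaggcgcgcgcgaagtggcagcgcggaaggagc
The Pold1 window (chr7:44548766-44549065, minus strand) held 1 E2F form, 39 bases after the start, and no CCAAT box.
Pold1: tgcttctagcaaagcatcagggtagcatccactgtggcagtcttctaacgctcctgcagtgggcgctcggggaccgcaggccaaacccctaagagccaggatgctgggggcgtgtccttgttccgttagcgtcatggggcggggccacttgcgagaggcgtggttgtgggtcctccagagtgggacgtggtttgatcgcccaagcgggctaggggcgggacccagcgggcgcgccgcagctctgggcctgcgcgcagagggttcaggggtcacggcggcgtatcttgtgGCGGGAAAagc
The Rrm2 window (chr12:24708004-24708303, plus strand) held no E2F form of these spellings and 1 CCAAT box.
Rrm2: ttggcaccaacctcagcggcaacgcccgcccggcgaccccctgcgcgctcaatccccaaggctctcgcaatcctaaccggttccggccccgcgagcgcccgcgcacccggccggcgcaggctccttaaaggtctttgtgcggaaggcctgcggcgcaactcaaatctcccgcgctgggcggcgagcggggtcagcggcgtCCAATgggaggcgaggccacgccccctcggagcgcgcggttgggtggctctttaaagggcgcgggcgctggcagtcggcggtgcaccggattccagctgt
The Pcna window (chr2:132253131-132253430, minus strand) likewise held no such E2F form and 1 CCAAT box.
Pcna: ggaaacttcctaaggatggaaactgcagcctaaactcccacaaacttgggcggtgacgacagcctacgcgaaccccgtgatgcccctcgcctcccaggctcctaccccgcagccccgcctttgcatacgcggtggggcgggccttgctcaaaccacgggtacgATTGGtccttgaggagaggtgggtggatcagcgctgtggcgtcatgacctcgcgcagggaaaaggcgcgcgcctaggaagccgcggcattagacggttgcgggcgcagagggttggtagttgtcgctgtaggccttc

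Counts assigned to genes ranged between 10106667 and 14366042 per library, and 14378 genes were tested. The members held between 560 (Gins1) and 21013 (Rrm1) counts over the 6 libraries, with a median of 2863, and all 42 passed the filter on low counts. Levels are given as CPM, read counts per 1000000 gene counts of a library after TMM scaling, and differences as log2 fold change ± standard error, with a change called at an adjusted p under 0.05. Ribosomal-repeat models took 2.10% of gene counts in BMP2 library 1 and 1.31% in PBS library 1, against 0.0702% to 0.0928% in the other libraries. The culture held cardiomyocyte transcripts, since 12 of 12 cardiomyocyte markers passed the filter and summed to between 27866 and 36870 CPM, but fibroblast markers summed to between 12615 and 14822 CPM. In such bulk samples, fewer cells of a type and less RNA per cell cannot be told apart. The direct BMP target Id1 had 16.9 and 16.1 CPM with BMP2+DM, against 46.6 and 49.7 CPM with BMP2 alone, and Smad6, a feedback inhibitor of the pathway, had 44.8 and 52.6 CPM against 171 and 201 CPM. In PBS libraries Id1 had 55.6 and 51.4 CPM and Smad6 141 and 163 CPM. They fell with BMP2+DM against BMP2 by 1.54 ± 0.13 and 1.93 ± 0.10 on the log2 scale. Of the 6 BMP targets listed (Id1, Id2, Id3, Smad6, Smad7 and Atoh8), all 6 fell with BMP2+DM, both against BMP2 and against PBS. With BMP2 against PBS only Id2 (0.57 ± 0.10, adjusted p = 0.000789) and Smad6 (0.29 ± 0.09, adjusted p = 0.0410) rose, and Id1 had a log2 fold change of −0.15 ± 0.11 (adjusted p = 0.429). The Smad6 call with BMP2 was lost with the DESeq2 Wald test on all 6 libraries. It was also lost without PBS replicate 1 or BMP2 replicate 2 (0.17 to 0.40 over the settings).

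BMP2 against PBS asks what BMP2 does to replication genes. Of the 42 genes, 6 rose and 1 fell. The genes that rose were the clamp gene Pcna, the RPA subunit Rpa1, the uracil DNA glycosylase Ung, the chromatin assembly subunit Chaf1b and both ribonucleotide reductase genes Rrm1 and Rrm2. The gene that fell was the polymerase delta catalytic subunit Pold1. The share called, 16.7%, lay near the 15.8% of all tested genes called in this comparison, so the number of calls is not a property of these genes. By direction the shares differed, with 14.29% of the members higher and 2.38% lower, against 6.55% and 9.29% of all tested genes. This split rests on few calls and was not tested. The median log2 fold change of the 42 was 0.09, and 29 of them (69.0%) lay above 0, where 50.7% of all tested genes did, and 13 lay below, as did 49.3% of all tested genes. The median of all tested genes was 0.00. Both BMP2 libraries lay above both PBS libraries for 17 members and below them for 2, against 27.9% and 28.0% of all tested genes. Without adjustment, at p under 0.05, 10 members were higher and 1 lower, and 28% of all tested genes passed in either direction. The fitted values of the members ran between −0.33 and 0.56.

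BMP2+DM against BMP2 asks how dorsomorphin changed the levels seen with BMP2. A single member changed, the helicase subunit Mcm4, which fell, and none rose. This is 2.4% of the 42, while 8.73% of all tested genes were called, 4.28% higher and 4.44% lower. The median log2 fold change of the members was −0.09, and 31 of them (73.8%) lay below 0, as did 49.9% of all tested genes, while 11 lay above, as did 50.1%. Both BMP2+DM libraries lay above both BMP2 libraries for 4 members and below them for 15, against 25.4% and 24.9% of all tested genes. At an unadjusted p under 0.05 there were 1 higher and 7 lower members, and 21.8% of all tested genes in either direction. That share covers both directions together, so neither count alone can be set beside it. For 33 members the 95% interval of the log2 fold change lay within ±0.5, so changes beyond that size were outside the interval for these genes, and for the other 9 they were not.

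BMP2+DM against PBS sets both agents together against neither and shares its libraries with each of the other comparisons. Here 6 members rose, namely Pcna, Ung, Chaf1b, Rrm1, Rrm2 and the cyclin E gene Ccne1, and Mcm4 fell. Their share, 16.7%, was below the 20.9% of all tested genes called. By direction, 14.29% of the members were higher and 2.38% lower, against 9.38% and 11.5% of all tested genes. The median log2 fold change was 0.02, with 22 members above 0 and 20 below, close to the 50.9% and 49.1% of all tested genes. At an unadjusted p under 0.05 there were 6 higher and 5 lower members, and 32.1% of all tested genes in either direction. Of all 42 members, 33 were called in none of the 3 comparisons, and 5 were called in both comparisons against PBS.

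**Figure D1:**
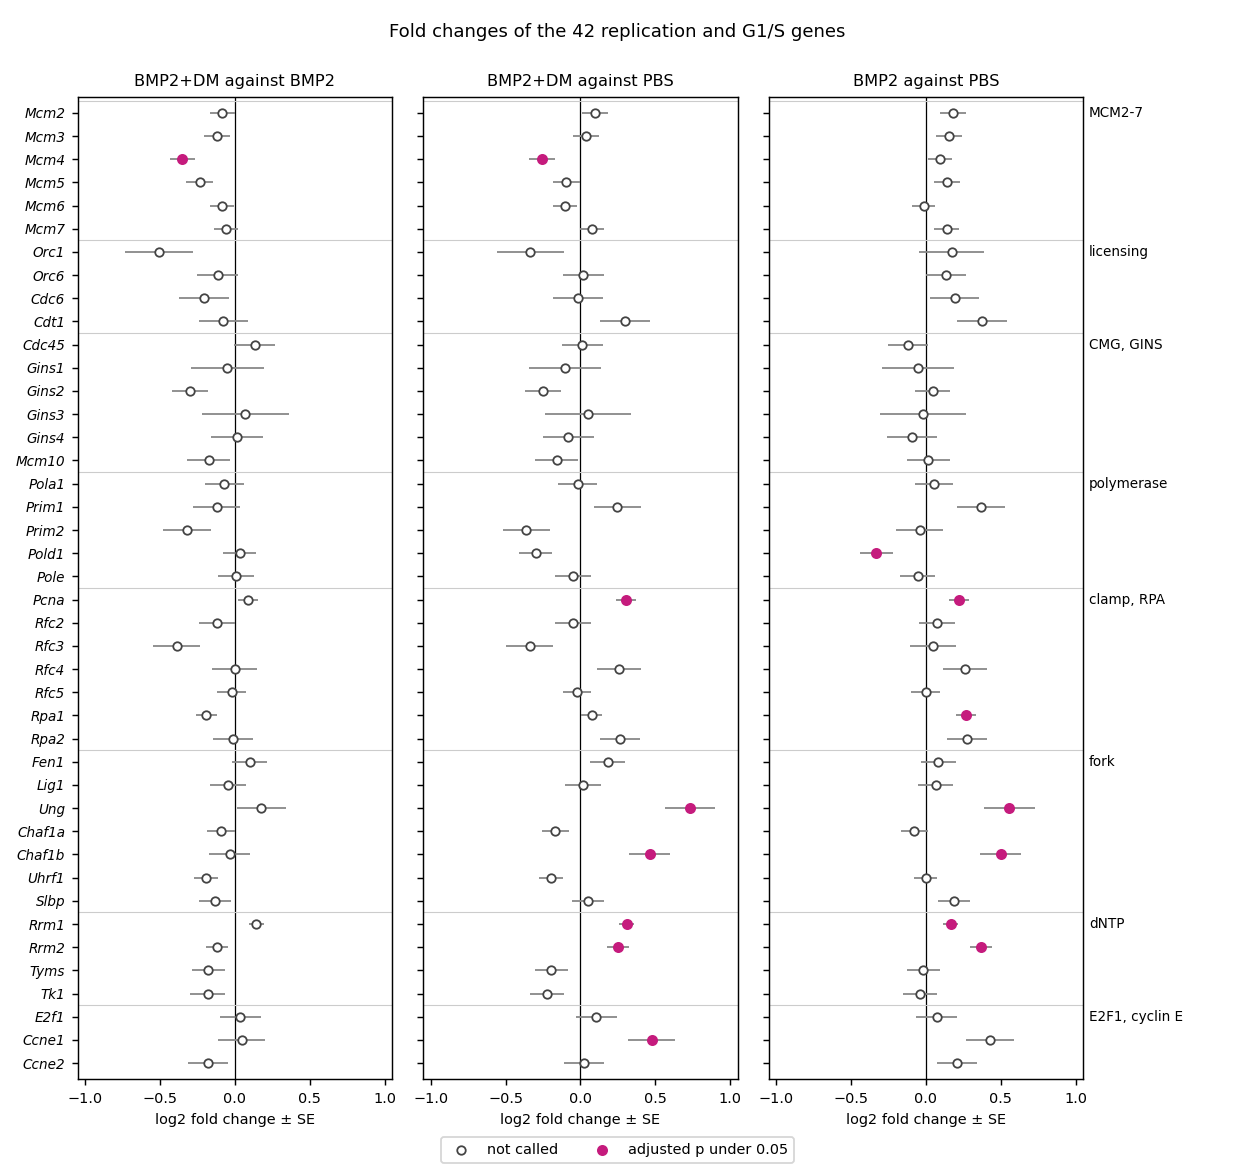
Fitted log2 fold change (x axis, bars ± standard error) of each of the 42 genes (y axis, ordered by role) in the 3 comparisons; filled points have an adjusted p under 0.05. Filled points are 1 gene in BMP2+DM against BMP2 and 7 genes in each comparison against PBS, and the fitted values of all points lie between −0.51 and 0.73.

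Counted together, the 42 genes summed to 2516 and 2514 CPM with BMP2+DM, 2611 and 2680 CPM with BMP2, and 2428 and 2425 CPM with PBS. Both BMP2 libraries were the highest and both PBS libraries the lowest, with no overlap between groups. Abundant members weigh most in this sum, so it does not describe each gene. Rrm1, Pcna and Rrm2 had mean levels of 347, 163 and 134 CPM with BMP2+DM and 280, 132 and 113 CPM with PBS. In that comparison 22 of the 42 genes had a log2 fold change above 0 and 20 below. Per kilobase of exonic length, Pcna had the highest level in every group, at 67.9 ± 0.452 CPM per kb with BMP2+DM, 64.0 ± 0.144 with BMP2 and 55.0 ± 2.37 with PBS (SD, n = 2 each). Rrm2 came next at 48.4 CPM per kb with BMP2+DM and 52.7 with BMP2. With BMP2+DM, Rrm1 (31.5) and Rpa1 (28.8) followed and Orc1 was last at 2.65 CPM per kb. Rrm1 and Rpa1 took the opposite order with BMP2, where Rpa1 stood at 32.9 and Rrm1 at 28.5 CPM per kb.

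**Figure D2:**
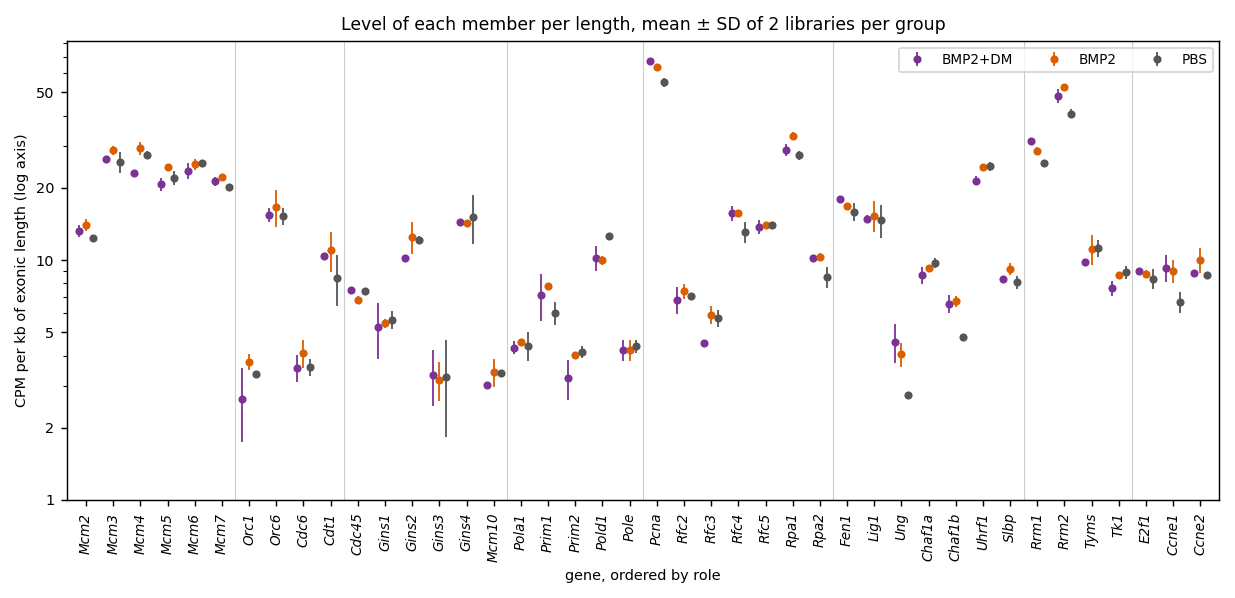
Level of each of the 42 genes in CPM per kb of exonic length (log y axis), as mean ± SD of 2 libraries for BMP2+DM, BMP2 and PBS, with genes ordered by role along the x axis. Pcna and Rrm2 are the highest in each group, the MCM helicase genes except Mcm2 lie near 20 to 30, and Orc1 and Gins3 are among the lowest.

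The MCM helicase is a ring of 6 subunits, Mcm2 to Mcm7, which summed to 560 ± 3.31 CPM with BMP2+DM, 622 ± 10.8 CPM with BMP2 and 576 ± 10.02 CPM with PBS. Mcm4 (chr16:15623897-15637400, minus strand, mm10) had 84.5 and 80.4 CPM with BMP2+DM, 110 and 101 CPM with BMP2, and 96.3 and 101 CPM with PBS. The BMP2+DM libraries lay below the other 4. Relative to BMP2, Mcm4 fell by 0.35 ± 0.08 on the log2 scale (95% interval −0.53 to −0.17, adjusted p = 0.0129 by edgeR's quasi-likelihood test), a 21.6% lower level. Relative to PBS it fell by 0.26 ± 0.08 (adjusted p = 0.0374), and between BMP2 and PBS its log2 fold change was 0.09 ± 0.08 (adjusted p = 0.510). The call against BMP2 was lost without BMP2 replicate 1 (−0.29) and without BMP2+DM replicate 2 (−0.31). The call against PBS was lost with the DESeq2 Wald test and without any one of its 4 libraries. The other 5 subunits passed the test in no comparison. Mcm2 had 88.2 and 95.4 CPM with BMP2+DM, 93.5 and 101 CPM with BMP2, and 85.8 CPM in both PBS libraries. Its groups BMP2 and PBS did not overlap, at a log2 fold change of 0.18 ± 0.08 (adjusted p = 0.170). Mcm5 had 86.3 and 78.8 CPM with BMP2+DM, 94.8 and 99.7 CPM with BMP2, and 92.2 and 83.8 CPM with PBS. Its log2 fold change for BMP2+DM against BMP2 was −0.24 ± 0.09 with an interval of −0.42 to −0.05 (adjusted p = 0.117). Mcm6, whose promoter window with 3 E2F forms is printed above, had log2 fold changes of −0.09 against BMP2 and −0.10 against PBS with BMP2+DM, and of −0.02 with BMP2 against PBS.

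None of the 4 licensing genes passed the test in any comparison. Orc1, the largest subunit of the origin recognition complex, had 11.4 and 6.996 CPM with BMP2+DM, 12.4 and 13.8 CPM with BMP2, and 11.6 and 11.7 CPM with PBS. Its log2 fold change for BMP2+DM against BMP2 was −0.51 ± 0.23, the lowest of the members (adjusted p = 0.196), and it rested on the second BMP2+DM library. Without BMP2+DM replicate 1 it was −0.91 (adjusted p = 0.0417) and without replicate 2 it was −0.19 (adjusted p = 0.733). Cdt1, which loads the helicase and is destroyed once S phase begins, had 32.8 and 32.7 CPM with BMP2+DM, 29.9 and 39.2 CPM with BMP2, and 31.0 and 22.03 CPM with PBS. Its libraries lay apart in the BMP2 and PBS groups alike, at an SD of 6.59 CPM with BMP2 and 6.36 CPM with PBS. Between BMP2 and PBS its log2 fold change was 0.37 ± 0.16 (interval 0.03 to 0.72, adjusted p = 0.143). It was 0.65 without PBS replicate 1 (adjusted p = 0.0451) and 0.16 without PBS replicate 2. Cdc6, the partner of CDT1, had 20.2 and 16.9 CPM with BMP2+DM, 19.5 and 23.5 CPM with BMP2, and 19.8 and 17.7 CPM with PBS, and its log2 fold changes lay between −0.21 and 0.19.

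The activators of the helicase did not pass the test either. Cdc45 had 26.3 and 26.1 CPM with BMP2+DM, 24.6 and 23.2 CPM with BMP2, and 26.4 and 25.5 CPM with PBS, all within a few CPM of each other. Gins2, a GINS subunit, had 42.7 and 40.5 CPM with BMP2+DM, 45.8 and 56.6 CPM with BMP2, and 48.3 and 50.9 CPM with PBS. The BMP2+DM libraries were the lowest, and the log2 fold change against BMP2 was −0.30 ± 0.12 with an interval of −0.55 to −0.04 (adjusted p = 0.150). Gins2 shares 67.3% of its exonic bases with Gse1 on the opposite strand, and the labels give no strand setting for the counting, so reads of the pair cannot be told apart.

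Among the polymerase genes, Pold1 (chr7:44532746-44548849, minus strand, mm10), whose window with an E2F form after the start is printed above, was the only member to fall with BMP2. It had 45.3 and 53.7 CPM with BMP2+DM, 46.9 and 50.02 CPM with BMP2, and 59.8 and 62.2 CPM with PBS. Both PBS libraries lay above the other 4. With BMP2 against PBS it fell by 0.33 ± 0.11 on the log2 scale (interval −0.56 to −0.10, adjusted p = 0.0498), to a level 20.5% lower. That value lies just under the threshold. The call was lost with the DESeq2 Wald test and with a filter of at least 10 counts over the 6 libraries. It was also lost without any one of the 4 libraries compared. The log2 fold change stayed between −0.38 and −0.28 over 14 alternative settings. With BMP2+DM against PBS the log2 fold change was −0.30 ± 0.11 (adjusted p = 0.0636), and −0.43 without BMP2+DM replicate 2 (adjusted p = 0.0328). Pola1, the catalytic subunit of the polymerase that starts each strand, had log2 fold changes between −0.07 and 0.05 in the 3 comparisons. The primase subunits gave values in different directions. Prim1 had a log2 fold change of 0.37 ± 0.16 with BMP2 against PBS (interval 0.04 to 0.70, adjusted p = 0.133). Prim2 had 21.7 and 16.5 CPM with BMP2+DM, 23.8 and 23.9 CPM with BMP2, and 23.6 and 25.6 CPM with PBS, so the BMP2+DM libraries were the lowest. Its log2 fold change for BMP2+DM against PBS was −0.36 ± 0.16 (adjusted p = 0.119), and −0.58 without BMP2+DM replicate 1 (adjusted p = 0.0420).

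The clamp, its loader and RPA summed to 502 ± 4.26 CPM with BMP2+DM, 525 ± 7.93 CPM with BMP2 and 460 ± 0.0263 CPM with PBS. Pcna (chr2:132249162-132253314, minus strand, mm10), the ring that tethers polymerases to DNA, had 164 and 162 CPM with BMP2+DM, 153 and 154 CPM with BMP2, and 136 and 128 CPM with PBS. The groups did not overlap. Pcna rose by 0.22 ± 0.07 with BMP2 against PBS (16.3% higher, adjusted p = 0.0340) and by 0.30 ± 0.07 with BMP2+DM against PBS (23.4% higher, adjusted p = 0.00325). The call with BMP2+DM held in 14 of 14 alternative settings, with log2 fold changes of 0.26 to 0.35. The call with BMP2 alone was lost with the DESeq2 Wald test and without any one of its 4 libraries (0.18 to 0.27 over the settings). Rpa1 (chr11:75298166-75348324, minus strand, mm10), the largest subunit of the single-strand binding protein, had 154 and 167 CPM with BMP2+DM, 178 and 189 CPM with BMP2, and 147 and 157 CPM with PBS. BMP2 libraries were the highest, and BMP2+DM and PBS libraries overlapped. Rpa1 rose by 0.27 ± 0.07 with BMP2 against PBS (20.3% higher, adjusted p = 0.0121), a call lost without PBS replicate 1 or BMP2 replicate 2 (log2 fold changes of 0.22 to 0.32 over the settings, adjusted p up to 0.233). Its log2 fold change for BMP2+DM against BMP2 was −0.19 ± 0.07 (interval −0.34 to −0.05, adjusted p = 0.103). Rpa2, the second RPA subunit, gave 0.28 ± 0.13 with BMP2 against PBS (adjusted p = 0.188). Rfc3, a subunit of the clamp loader, had 16.5 and 16.2 CPM with BMP2+DM, 22.6 and 20.1 CPM with BMP2, and 21.8 and 19.5 CPM with PBS. The BMP2+DM libraries lay below the other 4, at a log2 fold change of −0.39 ± 0.16 against BMP2 (adjusted p = 0.152).

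Of the fork and chromatin assembly genes, Ung and Chaf1b rose and the other 5 passed no test. Ung (chr5:114130386-114139323, plus strand, mm10), which removes uracil from new DNA, had 28.2 and 21.8 CPM with BMP2+DM, 20.3 and 23.96 CPM with BMP2, and 15.3 and 14.7 CPM with PBS. Both PBS libraries lay below the other 4, which overlapped. Ung rose by 0.73 ± 0.17 with BMP2+DM against PBS (66.3% higher, adjusted p = 0.00405), the highest fitted value of any member, and by 0.56 ± 0.17 with BMP2 against PBS (47.2% higher, adjusted p = 0.0306). Without BMP2+DM replicate 1 the first of these was 0.53 (adjusted p = 0.0759). The second was lost with the DESeq2 Wald test, and without either PBS library or BMP2 replicate 2 (values of 0.43 to 0.70 over the settings). Chaf1b (chr16:93883901-93906115, plus strand, mm10), a subunit of the factor that places histones on replicated DNA, had 28.9 and 32.6 CPM with BMP2+DM, 32.6 and 30.4 CPM with BMP2, and 21.7 and 22.8 CPM with PBS. The PBS libraries were again below the other 4. Chaf1b rose by 0.46 ± 0.14 with BMP2+DM against PBS (38.0% higher, adjusted p = 0.0215) and by 0.50 ± 0.14 with BMP2 against PBS (41.4% higher, adjusted p = 0.0169). With BMP2 the call was lost without any one of the 4 libraries (values of 0.41 to 0.55 over the settings). With BMP2+DM it was lost with the DESeq2 Wald test, and without either PBS library or BMP2+DM replicate 2 (values of 0.38 to 0.54). Chaf1a, the partner subunit, had log2 fold changes between −0.17 and −0.08, none called. It shares 52.5% of its exonic bases with Ubxn6 on the opposite strand. Fen1, another of the 5 uncalled genes, shares 84.2% with Gm10143 and Tmem258 on the opposite strand. Of the 42 genes, 8 share more than 10% of their exonic bases in this way. Uhrf1, which carries DNA methylation over to new strands, had 93.9 and 88.5 CPM with BMP2+DM, 105 and 104 CPM with BMP2, and 102 and 108 CPM with PBS. The BMP2+DM libraries were the lowest, at log2 fold changes of −0.19 ± 0.08 against BMP2 (adjusted p = 0.162) and −0.20 ± 0.08 against PBS (adjusted p = 0.0940). Slbp, which binds histone messenger RNA, had 51.02 and 50.5 CPM with BMP2+DM, 53.4 and 58.1 CPM with BMP2, and 46.9 and 51.2 CPM with PBS, and passed no test.

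Nucleotide supply was the group with both of its ribonucleotide reductase genes called. The 4 genes summed to 580 ± 0.756 CPM with BMP2+DM, 572 ± 23.1 CPM with BMP2 and 508 ± 8.69 CPM with PBS. Rrm1 (chr7:102441695-102469771, plus strand, mm10), the large subunit of the enzyme that makes deoxynucleotides, had 350 and 344 CPM with BMP2+DM, 306 and 322 CPM with BMP2, and 279 and 281 CPM with PBS. Its groups formed 3 separate steps. Rrm1 rose by 0.31 ± 0.05 with BMP2+DM against PBS (23.9% higher, adjusted p = 0.00021), which held in 14 of 14 settings with values of 0.29 to 0.32. It rose by 0.17 ± 0.05 with BMP2 against PBS (12.2% higher, adjusted p = 0.0322). This call was lost with the DESeq2 Wald test and without any one of the 4 libraries (0.13 to 0.20 over the settings). Between BMP2+DM and BMP2 its log2 fold change was 0.14 ± 0.05 (interval 0.04 to 0.25, adjusted p = 0.0927). Rrm2 (chr12:24708241-24714146, plus strand, mm10), the small subunit, whose level is the one that follows S phase, had 128 and 141 CPM with BMP2+DM, 145 and 147 CPM with BMP2, and 110 and 116 CPM with PBS. The groups did not overlap, and BMP2 was the highest. Rrm2 rose by 0.37 ± 0.07 with BMP2 against PBS (interval 0.21 to 0.53, 29.2% higher, adjusted p = 0.00185), a call that held without each library in turn but not with both repeat-rich libraries left out (adjusted p = 0.170). With BMP2+DM against PBS it rose by 0.25 ± 0.07 (18.8% higher, adjusted p = 0.0237), lost without either PBS library or BMP2+DM replicate 2 (values of 0.18 to 0.31, adjusted p up to 0.246). Tyms and Tk1, which make thymidylate, were called in no comparison. Tyms had 60.6 and 59.0 CPM with BMP2+DM, 60.9 and 74.4 CPM with BMP2, and 64.5 and 72.4 CPM with PBS. Tk1 had 41.5 and 37.7 CPM with BMP2+DM, 44.0 and 45.8 CPM with BMP2, and 48.2 and 44.1 CPM with PBS. For both, BMP2+DM libraries were the lowest, with log2 fold changes against PBS of −0.19 (adjusted p = 0.239) and −0.22 (adjusted p = 0.198).

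Of the E2F1 and cyclin E genes, Ccne1 alone was called, in 1 comparison. Ccne1 (chr7:38097984-38107534, minus strand, mm10) had 27.1 and 22.4 CPM with BMP2+DM, 25.8 and 22.1 CPM with BMP2, and 19.0 and 16.5 CPM with PBS. The PBS libraries were the lowest. It rose by 0.48 ± 0.16 with BMP2+DM against PBS (39.1% higher, adjusted p = 0.0418), and its value of 0.43 ± 0.16 with BMP2 against PBS missed the threshold (adjusted p = 0.0781). The call was lost with the DESeq2 Wald test, and without either PBS library or BMP2+DM replicate 1 (values of 0.33 to 0.61 over the settings). Ccne2 had 31.4 and 30.4 CPM with BMP2+DM, 32.0 and 38.1 CPM with BMP2, and 29.8 and 30.9 CPM with PBS. E2f1 itself had 28.8 and 28.0 CPM with BMP2+DM, 28.5 and 26.9 CPM with BMP2, and 28.1 and 24.6 CPM with PBS. Its groups overlapped against PBS with BMP2, at a log2 fold change of 0.07 ± 0.14 and an interval of −0.22 to 0.36 (adjusted p = 0.792).

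**Figure D3:**
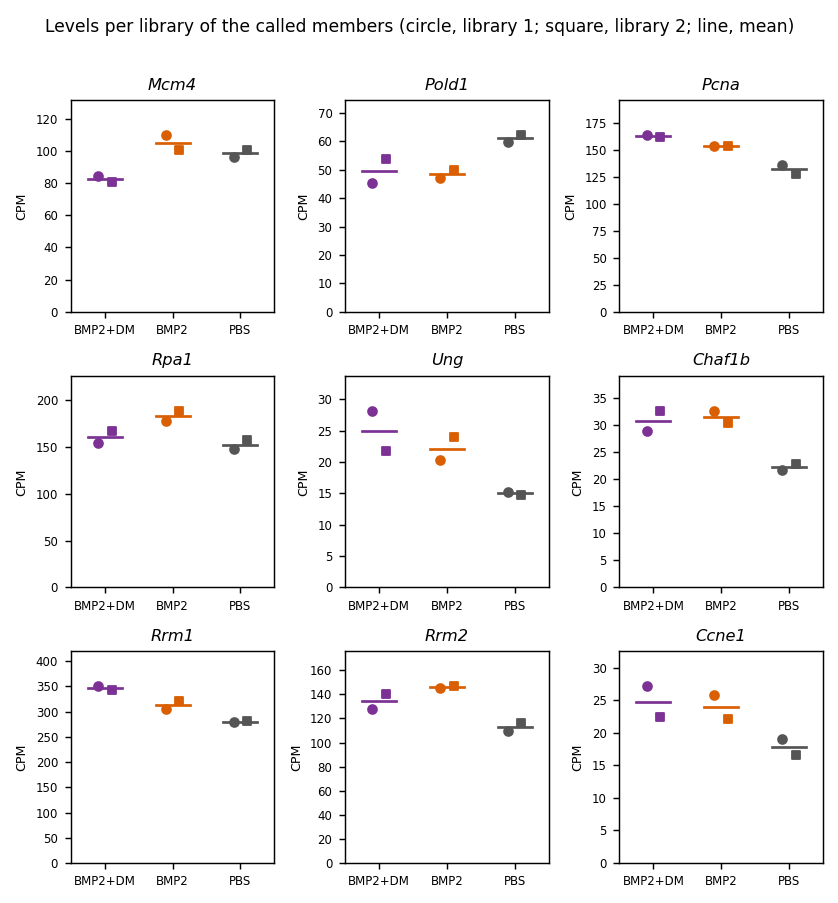
CPM per library (y axis from 0; circle, library 1; square, library 2; line, mean) of the 9 members called in any comparison, for BMP2+DM, BMP2 and PBS along the x axis. Pcna, Ung, Chaf1b, Rrm1, Rrm2 and Ccne1 are lowest in PBS, and Pold1 is highest in PBS. Rpa1 is highest in BMP2, and Mcm4 is lowest in BMP2+DM.

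Set against the promoter windows, the called members with a window held an E2F form in 1 of 8 (12.5%, Pold1) and the uncalled members in 12 of 26 (46.2%). No gene that rose held one of the forms searched in its window, and none of the 7 helicase and licensing genes that held one was called. This is a count over few genes and was not tested.

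Other genes of the same processes were read from lists that hold none of the 42. For these and the further lists below, the called shares of all tested genes serve as the measure. They were 6.55% higher and 9.29% lower for BMP2 against PBS, and 4.28% and 4.44% for BMP2+DM against BMP2. For BMP2+DM against PBS they were 9.38% and 11.5%. Of 39 further replication genes, 2 rose and none fell with BMP2 against PBS, none rose and 4 fell with BMP2+DM against BMP2, and 1 rose and 1 fell with BMP2+DM against PBS. Dna2, a nuclease that trims Okazaki fragments and resects breaks, had 18.7 and 15.3 CPM with BMP2+DM, 14.8 and 13.5 CPM with BMP2, and 5.86 and 8.71 CPM with PBS. It rose by 1.23 ± 0.22 with BMP2+DM against PBS (adjusted p = 0.000404) and by 0.97 ± 0.22 with BMP2 against PBS (adjusted p = 0.00453), larger fitted values than any of the 42 had. Without PBS replicate 1 the BMP2 value was 0.70 and no longer called, while the BMP2+DM call held in 14 of 14 settings. With BMP2+DM against BMP2, the fallers included Hells, a chromatin remodeller (−0.44 ± 0.10, adjusted p = 0.0105), Pclaf, a PCNA-binding factor (−0.32 ± 0.09, adjusted p = 0.0325), and Pole2, a subunit of polymerase epsilon (−0.66 ± 0.19, adjusted p = 0.0363). Pclaf also fell with BMP2+DM against PBS (−0.34 ± 0.09, adjusted p = 0.0104), a call lost without PBS replicate 1 or BMP2+DM replicate 2 (−0.38 to −0.29 over the settings, adjusted p up to 0.110). Orc4, of the origin recognition complex, rose with BMP2 against PBS (0.40 ± 0.12, adjusted p = 0.0244) and fell with BMP2+DM against BMP2 (−0.39 ± 0.12, adjusted p = 0.0434). The Orc4, Pole2 and Pclaf calls against BMP2 were lost in at least 5 of the 6 fits without 1 library (adjusted p up to 0.322, 0.390 and 0.380), with values of −0.56 to −0.25, −0.83 to −0.46 and −0.40 to −0.23 over the settings. The Hells call was lost without either BMP2 library or BMP2+DM replicate 1 (−0.47 to −0.40, adjusted p up to 0.146), and the Orc4 call with BMP2 against PBS without any one of its 4 libraries (0.35 to 0.44, adjusted p up to 0.304). Of 10 nucleotide metabolism genes, Nme1, a nucleoside diphosphate kinase, rose with BMP2 against PBS (0.45 ± 0.07, adjusted p = 0.000199). With BMP2+DM against PBS, Nme1 (0.25 ± 0.07, adjusted p = 0.0160) and Shmt1, a folate enzyme that serves thymidylate synthesis (0.67 ± 0.16, adjusted p = 0.00595), rose. Those 2 calls were lost without PBS replicate 2, Nme1 also without BMP2+DM replicate 1 and Shmt1 without BMP2+DM replicate 2 (values down to 0.19 and 0.43). Of 20 genes of the E2F and RB network, none rose and 2 fell with BMP2 against PBS, none rose and 1 fell with BMP2+DM against BMP2, and 1 rose and 2 fell with BMP2+DM against PBS. Apart from Myc, Tfdp2, a dimer partner of E2F proteins, fell with BMP2 against PBS (−0.38 ± 0.12, adjusted p = 0.0408). With BMP2+DM against PBS, the repressor E2f6 rose (0.32 ± 0.10, adjusted p = 0.0333) and Cks1b, a cyclin kinase subunit, fell (−0.40 ± 0.10, adjusted p = 0.0109). The Tfdp2 call was lost without any one of its 4 libraries, the E2f6 call without either PBS library or BMP2+DM replicate 1 and the Cks1b call without either PBS library or BMP2+DM replicate 2 (adjusted p up to 0.255, 0.207 and 0.117). E2f2, an activator E2F with few reads, had 6.68 and 4.08 CPM with BMP2+DM, 3.27 and 5.06 CPM with BMP2, and 2.14 and 2.96 CPM with PBS, and its log2 fold change of 1.08 ± 0.38 with BMP2+DM against PBS just missed the threshold (adjusted p = 0.0506). Of 24 genes of G2 phase and mitosis, 12 lay below 0 with BMP2 against PBS, 16 with BMP2+DM against BMP2 and 20 with BMP2+DM against PBS. The others lay above 0. Of all tested genes, 49.3%, 49.9% and 49.1% lay below 0. None of the 24 was called higher in any comparison, while 1 fell with BMP2 against PBS, 1 with BMP2+DM against BMP2 and 3 with BMP2+DM against PBS. With BMP2 against PBS the gene was Ube2c, a ubiquitin-conjugating enzyme of mitotic exit (−0.32 ± 0.09, adjusted p = 0.0226), lost without either PBS library or BMP2 replicate 2 (−0.40 to −0.24, adjusted p up to 0.202). For BMP2+DM against BMP2 it was Cdc20, an activator of the anaphase ligase (−0.32 ± 0.09, adjusted p = 0.0246), lost without any one of its 4 libraries (−0.36 to −0.29, adjusted p up to 0.225). The genes for BMP2+DM against PBS were Anln, a scaffold of the cleavage furrow (−0.29 ± 0.07), Cdc20 again (−0.33 ± 0.09), and Cdk1, the mitotic kinase (−0.26 ± 0.08). Each of these 3 was lost without at least 1 library, Anln without PBS replicate 1, Cdc20 without PBS replicate 2 or BMP2+DM replicate 2, and Cdk1 without any one of the 4 (adjusted p up to 0.115, 0.0974 and 0.149). Mki67, the proliferation marker, had 315 and 284 CPM with BMP2+DM, 284 and 301 CPM with BMP2, and 285 and 295 CPM with PBS, and for BMP2 against PBS its log2 fold change of 0.01 ± 0.06 had an interval of −0.11 to 0.13.

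Regulators that act before S phase also differed between the groups. Of 12 D-type cyclin and inhibitor genes, 2 rose and 2 fell with BMP2 against PBS, 1 fell with BMP2+DM against BMP2, and 3 rose and 1 fell with BMP2+DM against PBS. Ccnd1, cyclin D1, had 121 and 119 CPM with BMP2+DM, 148 and 156 CPM with BMP2, and 234 and 221 CPM with PBS. Ccnd1 shares 23.4% of its exonic bases with LTO1 on the opposite strand. It fell by 0.92 ± 0.07 with BMP2+DM against PBS (adjusted p = 1.25e-08), by 0.58 ± 0.07 with BMP2 against PBS (adjusted p = 4.62e-06) and by 0.34 ± 0.07 with BMP2+DM against BMP2 (adjusted p = 0.00318), the last of these not without BMP2 replicate 2 (values of −0.38 to −0.30 over the settings, adjusted p up to 0.0674). Ccnd2, cyclin D2, took the opposite direction, with 493 and 503 CPM with BMP2+DM, 472 and 459 CPM with BMP2, and 320 and 334 CPM with PBS. It rose by 0.61 ± 0.05 with BMP2+DM and by 0.51 ± 0.05 with BMP2, each against PBS. Cdkn1a, the inhibitor p21, which binds cyclin kinases and PCNA, had 382 and 385 CPM with BMP2+DM, 418 and 410 CPM with BMP2, and 304 and 313 CPM with PBS. It rose by 0.31 ± 0.05 with BMP2+DM and by 0.43 ± 0.05 with BMP2, each against PBS. Cdkn1b, the inhibitor p27, had 68.4 and 60.2 CPM with BMP2+DM, 53.0 and 50.4 CPM with BMP2, and 66.6 and 66.9 CPM with PBS, and fell by 0.37 ± 0.10 with BMP2 against PBS (adjusted p = 0.0181), a call lost without any one of the 4 libraries (values of −0.41 to −0.33, adjusted p up to 0.221). Cdkn2b, the inhibitor p15, rose by 0.93 ± 0.19 with BMP2+DM against PBS (adjusted p = 0.00138). Cdkn2a, an inhibitor locus with few reads, had 2.13 and 2.43 CPM with BMP2+DM, 4.36 and 1.24 CPM with BMP2, and 1.29 and 0.871 CPM with PBS. Its fitted values, the highest of the list, were 1.06 ± 0.60 with BMP2+DM and 1.36 ± 0.59 with BMP2, each against PBS, and neither passed the test (adjusted p = 0.242 and 0.135). Myc, a transcription factor of growth and cell cycle entry, had 21.1 and 20.6 CPM with BMP2+DM, 27.1 and 31.1 CPM with BMP2, and 48.9 and 45.8 CPM with PBS. It fell by 1.18 ± 0.13 with BMP2+DM and by 0.70 ± 0.13 with BMP2, each against PBS (adjusted p = 2.98e-06 and 0.000728). With BMP2+DM against BMP2 it fell by 0.48 ± 0.14 (adjusted p = 0.0347), a call lost in each of the 6 fits without 1 library (values of −0.58 to −0.38 over the settings, adjusted p up to 0.243).

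**Figure D4:**
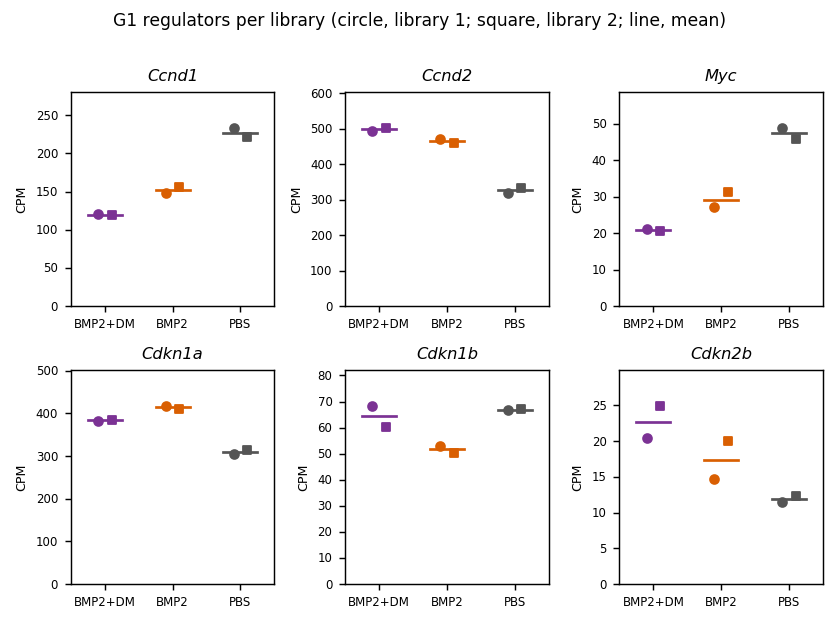
CPM per library (y axis from 0; circle, library 1; square, library 2; line, mean) of 6 G1 regulators, for BMP2+DM, BMP2 and PBS along the x axis. Ccnd1 and Myc are lowest in BMP2+DM and highest in PBS, Ccnd2 and Cdkn2b are lowest in PBS, and Cdkn1a is lowest in PBS and highest in BMP2.

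Markers of cell types differed between the groups beside these changes. Of 12 cardiomyocyte markers, 11 fell and none rose with BMP2 against PBS, 5 rose and none fell with BMP2+DM against BMP2, and 9 fell and none rose with BMP2+DM against PBS. Their summed level was 30970 to 31272 CPM with BMP2+DM, 27866 to 28090.5 CPM with BMP2 and 36315 to 36870 CPM with PBS. Fibroblast markers (12 tested) summed to 12615 to 13182 CPM with BMP2+DM, 13497 to 13888 CPM with BMP2 and 13952.5 to 14822 CPM with PBS. Single fibroblast markers moved in both directions. With BMP2 against PBS 1 rose and 6 fell, with BMP2+DM against BMP2 3 rose and 4 fell, and with BMP2+DM against PBS 2 rose and 7 fell. Smooth muscle markers summed to 1896 to 1987 CPM with BMP2+DM, 1853 to 1901 CPM with BMP2 and 3089 to 3159 CPM with PBS. In the same order of comparisons, 1 of these 8 rose and 5 fell, 2 rose and 2 fell, and 1 rose and 4 fell. Endothelial markers summed to 372 to 417 CPM with BMP2+DM, 536 to 555 CPM with BMP2 and 597 to 602 CPM with PBS. Of these 10, 1 rose and 1 fell with BMP2 against PBS. None rose with BMP2+DM, while 5 fell against BMP2 and 7 against PBS. Leukocyte markers, of which 5 of 10 passed the filter, summed to 63.6 to 65.7 CPM with BMP2+DM, 70.4 to 70.9 CPM with BMP2 and 94.2 to 94.9 CPM with PBS. None of these 5 rose, while 1 fell with BMP2 against PBS, 1 with BMP2+DM against BMP2 and 2 with BMP2+DM against PBS. Epicardial markers summed to 225 to 239 CPM with BMP2+DM, 195 to 202 CPM with BMP2 and 254 to 272 CPM with PBS, and 5 of 9 fell and 1 rose with BMP2 against PBS. Against BMP2, 3 of the 9 rose and 1 fell with BMP2+DM, and against PBS 1 rose and 4 fell. The part of these cell types in the differences of the replication genes was not tested.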

How the data were processed

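Polyadenylated RNA of 6 libraries was measured, 2 per group, as whole-number read counts per gene symbol that the authors deposited. The tools named, per the submitters' processing notes, are Trimmomatic, FastQC, HTSeq, STAR and DESeq2, and the build is mm10. The sources used here do not give the annotation or strand setting. The last 5 lines of each file name no gene, held 53.8% to 54.2% of its total and were left out. Reads assigned to no feature alone made up 49.69% to 50.15% of the total. Whether that share reflects the strand setting of the counting was not tested.

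The quasi-likelihood test of edgeR 4.0.16 in R 4.3.3 was run on all 6 libraries with group means, TMM scaling and filterByExpr, leaving 3 residual degrees of freedom, with Benjamini-Hochberg adjustment over the 14378 tested genes. Standard errors come from the F statistic (the absolute fitted value over its square root). Intervals are 95% intervals. Tests and intervals use total degrees of freedom (median 17.32), which add to the residual ones those that edgeR borrows across genes. The steps were tested on simulated data. Alternatives were DESeq2 1.42.0, RLE scaling, no or another filter on low counts, only the 4 libraries compared, a replicate block, repeat models left out, and libraries left out singly or both repeat-rich ones together. Refits of genes outside the 42 were added after seeing the data. Per-kilobase levels and positions use union exonic lengths of GENCODE vM21. The counts of the replicates differed by more than sampling noise (chi-square per degree of freedom of 3.80 to 16.6).

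Members and gene lists were chosen with earlier results of these data known. The text names each called member, a fixed panel of 15 members, the extreme member of each role and Mki67, Id1 and Smad6. The rule for other lists was up to 4 genes with the smallest p per comparison. Of the replication, nucleotide, cell cycle regulator and mitosis lists the called ones among these are given, and cell type lists only as counts and sums. E2f2 and Id2 also fall under that rule, and Cdkn2a was singled out after its values were seen.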

Additional observations from a re-analysis of the deposited data

How the results depend on the processing

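The counts of calls moved most where libraries were left out, in fits that take the spread of a lone library from the other groups. For all tested genes, leaving out 1 library gave 1318 to 2470 calls for BMP2 against PBS, 670 to 1081 for BMP2+DM against BMP2 and 1827 to 2928 for BMP2+DM against PBS. With both repeat-rich libraries (PBS 1 and BMP2 1) left out they were 574, 313 and 1388. For the 42 members, leaving out 1 library gave 1 to 7 calls for BMP2 against PBS, 0 to 2 for BMP2+DM against BMP2 and 3 to 7 for BMP2+DM against PBS, and with both repeat-rich libraries left out 1, 0 and 2. The DESeq2 Wald test called 3 members for BMP2 against PBS and 4 for BMP2+DM against PBS. It did not call Pold1, Pcna, Ung and Rrm1 in the first, or Mcm4, Chaf1b and Ccne1 in the second. Among refitted genes outside the 42, it lost the calls of Smad6 and Tfdp2 with BMP2 against PBS. Those of Orc4, Pole2 and Myc with BMP2+DM against BMP2 and of E2f6 with BMP2+DM against PBS were lost too. Over 1764 refits of a member, 1701 kept their side of the threshold, 58 lost a call, 5 gained one and no call reversed. Sign changes between uncalled values, 91 in number, are among the 1701 and were not counted as reversals. Of the member calls, Pcna and Rrm1 with BMP2+DM against PBS and Rrm2 with BMP2 against PBS remained called without each library in turn.

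Same-numbered libraries did not deviate together (r of −0.0376 to 0.0248 over 14378 genes), so the replicate numbers were not taken as pairs. With the replicate block, 2261, 1226 and 2960 genes and 7, 1 and 7 members were called, in the order of comparisons above.

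With 2 libraries per group and 3 residual degrees of freedom, the median standard error of a member was 0.12 on the log2 scale, which limits how small a change could be called.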
